A study of Mus musculus with 9 samples.

Results

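The genes described here encode the neurofilaments of sensory neurons and neuronal proteins that act on or beside them. They are Nefl, Nefm, Nefh, Prph, Ina, Tubb3, Stmn2, Stmn3, Map1b and Uchl1, chosen by name from 45904 identifiers. All 10 were among the 17601 identifiers that passed the filter on low values and were tested. They were measured by RNA sequencing in whole sciatic dorsal root ganglia of C57BL/6 mice, which hold the cell bodies of the sensory neurons whose axons run in the sciatic nerve, together with satellite glia, Schwann cells, vessels and immune cells. The 3 groups were young sham (8 to 10 weeks old), aged sham (20 to 22 months old) and aged injury (20 to 22 months old, with sciatic nerve injury). Each group had 3 libraries, each library pooled the ganglia of 2 mice, and all ganglia were taken 24 h after surgery. Young mice with an injury were not analysed here, and the kind of nerve injury is not given in the sources used here.

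Neurofilaments are the intermediate filaments of neurons. They are built from a light, a medium and a heavy chain (Nefl, Nefm and Nefh), joined by alpha-internexin (Ina) or, in peripheral neurons, by peripherin (Prph), and they are most abundant in large myelinated axons, whose calibre they help to set. Microtubules run beside them and carry axonal transport. Tubb3 is the neuron-specific beta-tubulin, Map1b binds microtubules in growing axons, and the stathmins Stmn2 and Stmn3 bind tubulin dimers and regulate microtubule assembly. Uchl1 is an abundant neuronal ubiquitin hydrolase and, like Tubb3, a common marker of neurons. In rodents, cutting a peripheral nerve is known to lower neurofilament mRNA and to raise some tubulin mRNAs in the ganglion over days to weeks.

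Between libraries, Prph, Tubb3, Stmn3 and Uchl1 went up and down together, as described further on. The regions around the start sites of Prph, Tubb3 and Uchl1 are therefore shown here beside each other, and that of Stmn3 is described without its bases. RefSeq regions of 250 bases before and 50 bases after the start site, on build GRCm38.p6, were matched for 6 of the 10 genes (Prph, Ina, Tubb3, Stmn3, Map1b and Uchl1). The regions shown are Prph (chr15:99054924-99055223, plus strand), Tubb3 (chr8:123411303-123411602, plus strand) and Uchl1 (chr5:66675871-66676170, plus strand), each written 5′ to 3′, with matches to the TATA box letters TATAA in capitals.
Prph: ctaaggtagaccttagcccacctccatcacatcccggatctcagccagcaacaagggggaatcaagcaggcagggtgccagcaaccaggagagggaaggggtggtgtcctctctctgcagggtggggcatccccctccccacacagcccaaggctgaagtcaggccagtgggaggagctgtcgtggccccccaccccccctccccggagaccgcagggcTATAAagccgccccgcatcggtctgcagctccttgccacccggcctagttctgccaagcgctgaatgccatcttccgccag
Tubb3: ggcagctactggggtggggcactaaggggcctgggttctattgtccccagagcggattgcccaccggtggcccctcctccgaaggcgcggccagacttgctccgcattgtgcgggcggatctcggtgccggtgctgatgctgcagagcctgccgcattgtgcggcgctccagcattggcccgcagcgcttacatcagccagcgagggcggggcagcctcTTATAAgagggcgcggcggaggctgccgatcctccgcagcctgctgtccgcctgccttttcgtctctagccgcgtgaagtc
Uchl1: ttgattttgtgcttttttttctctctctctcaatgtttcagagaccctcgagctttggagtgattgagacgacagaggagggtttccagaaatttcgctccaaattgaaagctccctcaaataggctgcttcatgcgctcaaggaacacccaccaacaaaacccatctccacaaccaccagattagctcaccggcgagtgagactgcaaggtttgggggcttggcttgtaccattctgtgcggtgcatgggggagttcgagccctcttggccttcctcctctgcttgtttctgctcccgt
All letters were searched on both strands, so a match can stand in the printed strand as its reverse complement. TATAA was found in 24.9% of all 32851 such regions. It began at base -31 from the start site in Prph. In Tubb3 the match at -31 on 1 strand overlapped a match at -30 on the other. Of the other regions matched, Map1b held it at -99, and Ina, Stmn3 and Uchl1 did not hold these letters. Prph, Tubb3, Ina and Map1b held the GC box letters GGGCGG, as did 35.7% of all regions, and CCAAT, found in 37.4%, occurred in Tubb3. The AP-1 letters TGANTCA (7.81% of all regions) and the CRE letters TGACGTCA (1.79%) were found in 0 of the 6. The base composition also differed, with 64.7% G and C in Prph, 67.3% in Tubb3, 49.7% in Stmn3 and 50.7% in Uchl1.

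The libraries were alike in depth but not in the sex of the mice. Reads recovered from the deposited values imply 11160000 to 16150000 fragments per library, which gave 34659 to 55957 fragments for Nefl and 507 to 710 for Ina, the member with the fewest. Xist, the RNA that silences an X chromosome in females, was at 0 to 0.02 FPKM (fragments scaled to gene length and library size) in the young libraries and at 9.77 to 13.0 FPKM in 5 of the 6 aged ones. It stood at 1.75 FPKM in the first aged sham pool. Ddx3y, on the Y chromosome, had 13.8 to 15.7 FPKM among young pools, 10.9 FPKM in that first aged sham pool, and no more than 0.0133 FPKM in any other aged pool. The labels do not give the sex of the mice, and age and sex cannot be told apart in any comparison of aged with young ganglia. Aged sham replicate 1 also stood apart in genes that sensory neurons switch on after axotomy: the summed level of 12 such genes was 290.9 FPKM there, 150.1 and 152.8 FPKM in its group's other pools, 114.4 to 180.2 FPKM in young sham and 522.3 to 712.8 FPKM in aged injury. Atf3, a transcription factor induced in injured neurons, was at 16.3 to 42.3 FPKM in young sham, 27.1 to 95.6 FPKM in aged sham and 191.8 to 277.6 FPKM in aged injury.

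The summed level of 14 general neuron markers was 1708.6 to 1761.6 FPKM in young sham, 1707.5 to 1834.6 FPKM in aged sham and 1629.5 to 1774.8 FPKM in aged injury. Of these 14, Pou4f1 and Isl1, transcription factors of sensory neurons, fell with age by 0.39 and 0.33 on the log2 scale (limma adjusted p = 0.0169 and 0.0284), and Isl1 also fell with injury by 0.26 (limma adjusted p = 0.0391). The 9 genes listed as markers of large myelinated neurons, Ret and Spp1 among them, summed to 422.4 to 476.6, 435.6 to 483.6 and 450.3 to 467.5 FPKM. Chat, the enzyme that defines cholinergic motor neurons, was at 0 to 0.0319 FPKM, and the 3 spinal motor neuron markers in the table summed to 0.24 to 0.843 FPKM, so motor neurons, which are also rich in neurofilament, were near absent. Of the glia, 9 myelinating Schwann cell markers summed to 2822.1 to 3254.4 FPKM in young sham, 1906.0 to 2028.6 FPKM in aged sham and 1664.2 to 1942.4 FPKM in aged injury, and 8 macrophage markers to 64.3 to 73.9, 107.5 to 254.9 and 96.1 to 191.5 FPKM. The part of these cell types in the values below was not tested. Because these are whole ganglia, fewer neurons and less RNA per neuron cannot be told apart.

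All members but Ina were among the most abundant transcripts of the ganglion. By mean FPKM, which is a level per length, 5 identifiers of the table lay above Uchl1, 16 above Nefl and 4560 above Ina. In young sham the order of the group means was Uchl1, Tubb3, Nefl, Stmn2, Nefm, Prph, Nefh, Stmn3, Map1b and Ina. The libraries of Uchl1, Tubb3, Nefl and Stmn2 overlapped between neighbours, those of Stmn2 and Nefm and of Nefm and Prph did not, Prph, Nefh and Stmn3 again overlapped between neighbours, and Map1b and Ina were separate. In aged sham the order was Uchl1, Tubb3, Stmn2, Nefl, Prph, Stmn3, Nefm, Nefh, Map1b and Ina, with no overlap between Tubb3 and Stmn2, between Nefh and Map1b or between Map1b and Ina. In aged injury it was Uchl1, Tubb3, Stmn2, Nefl, Prph, Nefm, Stmn3, Nefh, Map1b and Ina, with overlap only between Uchl1 and Tubb3, Tubb3 and Stmn2, Prph and Nefm, and Nefm and Stmn3. Nefl thus stood in the third place in young ganglia and in the fourth in both aged groups, and Nefm moved from the fifth place to the seventh and sixth. These orders depend on the gene lengths behind the deposited values, which differ from GENCODE M21 for Stmn2 (1904 bases implied against 5602 annotated), Map1b (11852 against 15846), Prph (1865 against 1999) and Uchl1 (1616 against 1632).

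**Figure D1:**
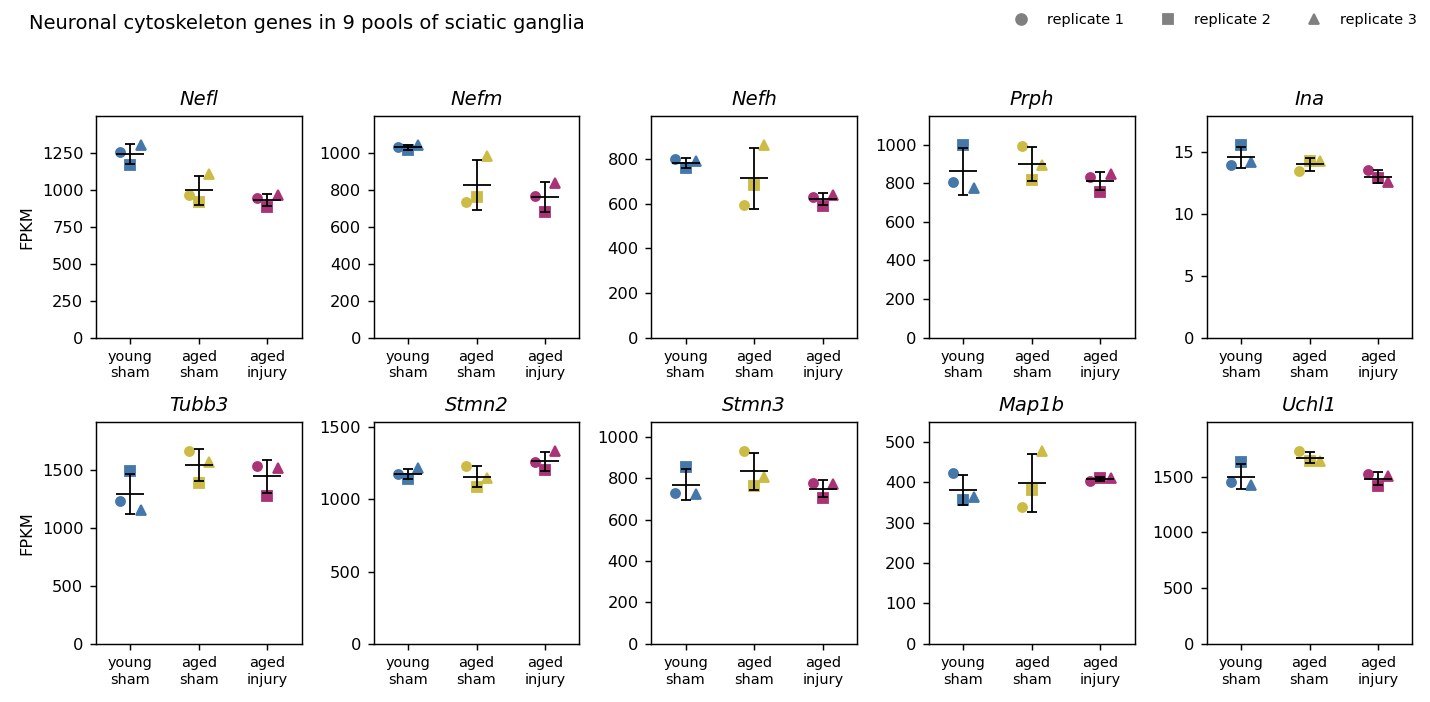
FPKM of the 10 genes in each library, with 1 panel per gene, the axis starting at 0, the horizontal bar at the group mean and the error bar spanning 1 SD (n = 3 libraries). Nefl and Nefm lie higher in all young sham libraries (1168 to 1302 and 1015 to 1041 FPKM) than in any aged library.

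The light chain Nefl (chr14:68083863-68089095, plus strand, protein-coding) was at 1256, 1168 and 1302 FPKM in young sham pools 1 to 3, 962.0, 919.2 and 1103 FPKM among aged sham pools, and 945.2, 884.1 and 963.2 FPKM among injured pools. All young libraries were above all aged ones, and the aged groups overlapped. The medium chain Nefm (chr14:68082590-68124846, minus strand) was at 1032, 1015 and 1041 FPKM in young sham pools 1 to 3, 733.2, 760.7 and 979.7 FPKM among aged sham pools, and 764.4, 678.0 and 836.6 FPKM among injured pools. Here too every young library was above every aged library, while aged sham replicate 3 came close to the young values. The heavy chain Nefh (chr11:4938754-4948064, minus strand), whose long tail sets the spacing of filaments, was at 799.7, 759.2 and 789.9 FPKM in young sham pools 1 to 3, 594.1, 683.7 and 863.0 FPKM among aged sham pools, and 630.5, 590.5 and 641.2 FPKM among injured pools. Aged sham held values both below and above all of young sham and overlapped aged injury, and aged injury lay wholly below young sham.

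Summed, Nefl, Nefm and Nefh reached 2942 to 3133 FPKM in young sham, 2289 to 2945 FPKM in aged sham and 2153 to 2441 FPKM in aged injury. They made up 31.2% to 35.6%, 24.9% to 31.0% and 27.0% to 27.6% of the summed FPKM of the 10 genes. The share was lowest in aged sham replicate 1, the pool with Ddx3y and with the highest axotomy gene level of its group. In GENCODE M21 Nefl lies within the span of Nefm on the opposite strand, and they share 1108 exon bases, which is 32.8% of the exon bases of Nefl and 19.2% of those of Nefm. Strand handling in the counting is not given in the sources used here, so part of the reads of these neighbours cannot be told apart and their separate values are uncertain to that extent.

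Tested with limma over all 17601 genes, Nefl and Nefm fell in aged injury against young sham. These groups differ in age, in nerve injury and, by Xist and Ddx3y, in sex, which cannot be told apart in this comparison. Nefl went from 1242 ± 68.3 to 930.8 ± 41.4 FPKM (SD, n = 3 each), 1.33-fold lower, or -0.42 on the log2 scale (SE 0.085, 95% interval -0.61 to -0.22, limma with Benjamini-Hochberg adjustment, adjusted p = 0.0153). Nefm went from 1029 ± 13.1 to 759.7 ± 79.4 FPKM, 1.36-fold lower, or -0.44 on the log2 scale (SE 0.117, 95% interval -0.71 to -0.18, limma adjusted p = 0.0383). Nefh had a mean of 620.7 ± 26.7 FPKM against 783.0 ± 21.2 FPKM and a log2 change of -0.34, 1.26-fold, which did not pass (limma adjusted p = 0.0952). These 2 were 2 of 10 members called, beside 13.1% of all genes called in this comparison and 4.89% called lower. With the libraries set to equal medians, 1670 genes were called lower in place of 860. The groups did not overlap for 4 members, Nefl, Nefm, Nefh and Ina, as for 35.4% of all genes.

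Both calls depended on which libraries were used. Nefl was called in 5 of the 9 fits that left out 1 library, with log2 changes of -0.46 to -0.38, and Nefm in 2 of 9, with -0.52 to -0.36. Nefl was not called without young sham replicates 1 or 3 or aged injury replicates 2 or 3 (limma adjusted p = 0.0671, 0.0713, 0.0560 and 0.0546), and Nefm was called only without aged sham replicates 1 or 3. Without aged sham replicate 1, the log2 changes against young sham were the same, and Nefh was called as well (limma adjusted p = 0.0469). With the mean level of 4 Y-linked genes as a covariate, neither was called (limma adjusted p = 0.225 for Nefl and 0.176 for Nefm), with log2 changes of -0.48 and -0.70. Scaling the libraries to an equal level of the general neuron markers left log2 changes of -0.35 for Nefl and -0.37 for Nefm, both called (limma adjusted p = 0.0217 and 0.0446). With quantile normalization neither was called, with log2 changes of -0.25 and -0.37 (limma adjusted p = 0.238 and 0.0597), and with no filter on low values neither was called either (limma adjusted p = 0.0633 and 0.0905). In the same comparison 3 of 14 general neuron markers fell. Of the 9 genes listed as large neuron markers 2 rose, Ret by 0.38 and Spp1 by 0.31 on the log2 scale (limma adjusted p = 0.0149 and 0.0266). Pvalb, a calcium-binding protein of proprioceptors, fell by 0.68 (limma adjusted p = 0.0221), and the rest, Ntrk3 and Runx3 among them, did not pass. In whole ganglia, which cells gave the Ret and Spp1 values cannot be told. The part of large neurons in the neurofilament values was not tested.

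The age comparison asked how aged ganglia differ from young ones without nerve injury, and 0 of 10 members were called, beside 4.02% of all genes. At an unadjusted p under 0.05, 2 of 10 members passed (limma), Nefl and Nefm, as did 26.3% of all genes. Nefl was 994.6 ± 96.0 FPKM in aged sham against 1242 ± 68.3 FPKM in young sham (SD, n = 3 each), which is -0.32 on the log2 scale with an SE of 0.085 (limma adjusted p = 0.0617). Nefm was 824.5 ± 135.1 against 1029 ± 13.1 FPKM, which is -0.33 with an SE of 0.117 (limma adjusted p = 0.118), and Nefh 713.6 ± 136.9 against 783.0 ± 21.2 FPKM (-0.15, limma adjusted p = 0.445). The groups did not overlap for Nefl, Nefm and Uchl1, 3 of 10 members, as for 29.2% of all genes. Nefl was called in 3 of 22 other settings, among them array weights (limma adjusted p = 0.0391). Without aged sham replicate 1, 0 members were called, and the log2 change of Nefh was -0.03.

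In the injury comparison, which set injured against sham ganglia within aged mice, 0 of 10 members were called, beside 4.11% of all genes, and 0 passed at an unadjusted p under 0.05 (limma), beside 19.8%. The log2 change was -0.09 for Nefl (95% interval -0.28 to 0.10), -0.11 for Nefm (-0.38 to 0.15) and -0.19 for Nefh (-0.45 to 0.08). Each interval held 0. The groups did not overlap for 1 member, Uchl1, as for 25.4% of all genes. With aged sham replicate 1 left out, 0 members were called. This comparison and the age comparison share the aged sham libraries, so a low or high aged sham library moves their values in opposite directions.

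**Figure D2:**
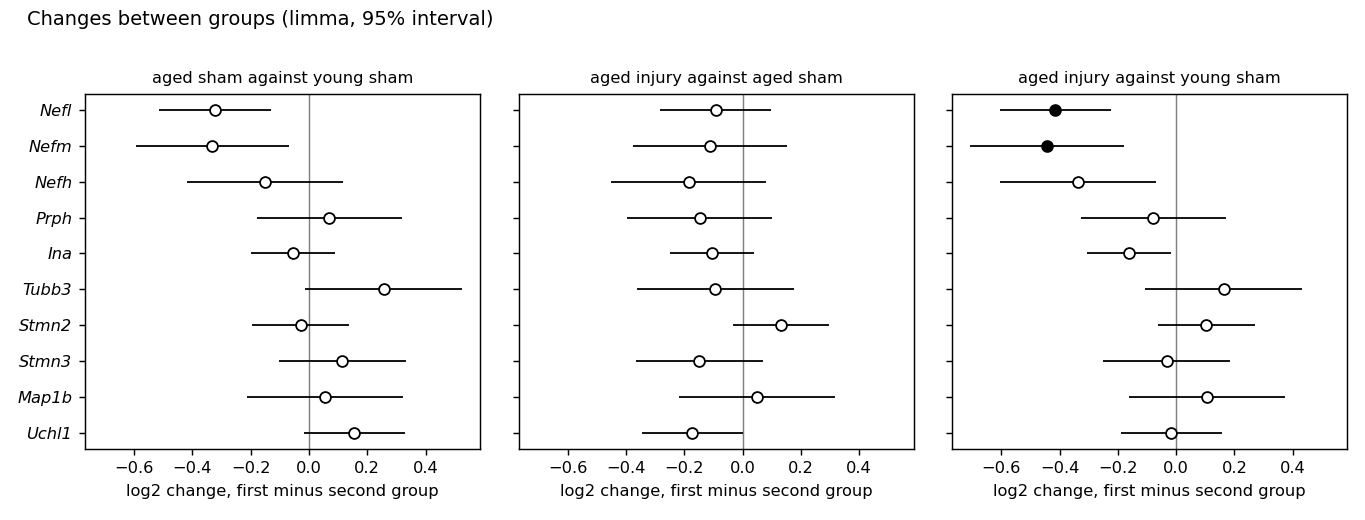
Log2 change of each gene in the 3 comparisons, first named group minus second, as points with 95% intervals from limma. Filled points mark genes called at an adjusted p under 0.05, which are Nefl (-0.42) and Nefm (-0.44) in aged injury against young sham.

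Over the 9 libraries the log2 level of peripherin did not follow those of Nefl, Nefm and Nefh (Pearson's r = 0.05, 0.13 and 0.03). Prph (chr15:99055174-99058978, plus strand), which co-assembles with the neurofilament chains and is strongest in small unmyelinated neurons, was at 809.2, 998.6 and 776.7 FPKM in young sham pools 1 to 3, 992.4, 817.0 and 892.7 FPKM among aged sham pools, and 830.2, 756.6 and 848.9 FPKM among injured pools. All groups overlapped. Its log2 change was 0.07 with age (limma adjusted p = 0.727) and -0.15 with injury (limma adjusted p = 0.516). The change with injury lay between those of Nefl (-0.09) and Nefh (-0.19). Ina (chr19:47014698-47025327, plus strand), an embryonic and central neuron filament, was at 13.95, 15.57 and 14.18 FPKM in young sham pools 1 to 3, 13.43, 14.28 and 14.31 FPKM among aged sham pools, and 13.57, 12.92 and 12.54 FPKM among injured pools. Aged injury lay wholly below young sham, a log2 change of -0.16 that did not pass (limma adjusted p = 0.13). Ina shares 456 exon bases with Nt5c2 on the opposite strand, which was at 11.618 to 13.578 FPKM, so its value carries the same uncertainty about strand.

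Ratios within a library do not depend on a single factor that scales the whole library. They can still carry the differences between libraries in slope on G and C content, given further on. G and C made up 48.8% of the longest transcript of Nefl, 58.4% for Nefh and 60.8% for Prph. With libraries adjusted for G and C content and length, their log2 changes with age were -0.41, -0.37 and -0.19, in place of -0.32, -0.15 and 0.07. The ratios were not tested under that adjustment. The ratio of Nefm to Nefl was 0.822, 0.869 and 0.799 in young sham, 0.762, 0.828 and 0.889 in aged sham and 0.809, 0.767 and 0.869 in aged injury, all overlapping. That of Nefh to Nefl was 0.637, 0.650 and 0.607 in young sham and 0.618, 0.744 and 0.783 in aged sham. In the 3 injured libraries it was 0.667, 0.668 and 0.666, so these were closer to each other than those of the sham groups. Prph to Nefl was 0.644, 0.855 and 0.597 in young sham, 1.032, 0.889 and 0.810 in aged sham and 0.878, 0.856 and 0.881 in aged injury. The mean Prph to Nefl ratio was 0.910 ± 0.112 in aged sham and 0.699 ± 0.138 in young sham (SD, n = 3 each, two-sided exact permutation test, p = 0.2, adjusted p = 0.8 over 6 ratio tests). For Nefh to Nefl the means were 0.715 ± 0.086 and 0.631 ± 0.022 (exact permutation test, p = 0.3, adjusted p = 0.8). The other 4 exact permutation tests gave p-values of 0.4 to 1, and with 3 libraries against 3 the smallest p possible is 0.1, so none could pass.

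**Figure D3:**
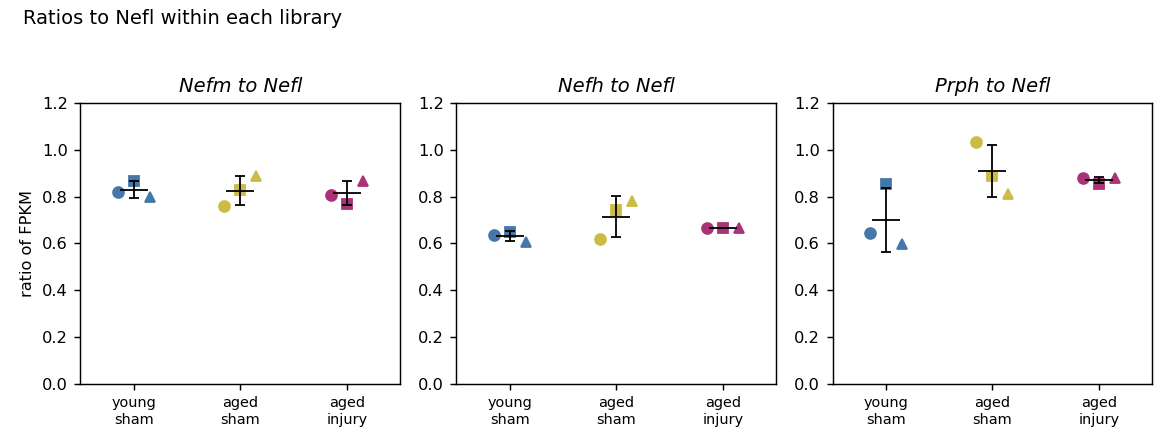
Ratio of the FPKM of Nefm, Nefh and Prph to that of Nefl in each library, with the group mean and 1 SD (n = 3 libraries), the axis starting at 0. The 3 aged injury libraries lie within 0.666 to 0.668 for Nefh, whereas aged sham runs from 0.618 to 0.783.

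Of the microtubule genes, Tubb3 (chr8:123411424-123422015, plus strand) was at 1232, 1485 and 1153 FPKM in young sham pools 1 to 3, 1658, 1385 and 1565 FPKM among aged sham pools, and 1533, 1274 and 1515 FPKM among injured pools. Young sham replicate 2 lay inside the aged range. Its log2 change was 0.26 with age (SE 0.120, limma adjusted p = 0.209) and -0.09 with injury (limma adjusted p = 0.721). Map1b (chr13:99421446-99516540, minus strand) was at 422.5, 355.4 and 362.7 FPKM in young sham pools 1 to 3, 337.4, 379.8 and 476.7 FPKM among aged sham pools, and 402.6, 409.1 and 411.1 FPKM among injured pools. The aged sham libraries held both its lowest and its highest value, and the injured ones were close together. Its log2 change was 0.06 with age (limma adjusted p = 0.805) and 0.05 with injury (limma adjusted p = 0.865).

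Stmn2 and Stmn3 did not follow each other. Stmn2 (chr3:8509360-8561606, plus strand), a growth cone protein also called SCG10, was at 1176, 1141 and 1215 FPKM in young sham pools 1 to 3, 1231, 1085 and 1151 FPKM among aged sham pools, and 1257, 1206 and 1335 FPKM among injured pools. It was 1 of 2 members, with Map1b, whose log2 change with injury was above 0, at 0.13 (SE 0.074, limma adjusted p = 0.366), and its highest aged sham library overlapped the injured ones. Stmn3 (chr2:181306459-181314500, minus strand), also called SCLIP, was at 728.8, 854.5 and 724.2 FPKM in young sham pools 1 to 3, 931.4, 761.5 and 807.3 FPKM among aged sham pools, and 776.1, 703.5 and 770.9 FPKM among injured pools. Its log2 change was 0.12 with age (limma adjusted p = 0.478) and -0.15 with injury (limma adjusted p = 0.451). Of all members, Stmn2 and Ina spread least over the 9 libraries, with coefficients of variation of 6.06% and 6.4%, and Nefm most, with 16.6%.

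Uchl1 (chr5:66676091-66687234, plus strand) was at 1450, 1633 and 1421 FPKM in young sham pools 1 to 3, 1729, 1642 and 1640 FPKM among aged sham pools, and 1526, 1415 and 1505 FPKM among injured pools. Every aged sham library was above every library of both other groups. The log2 change was 0.16 with age (SE 0.077, limma adjusted p = 0.229) and -0.17 with injury (SE 0.077, limma adjusted p = 0.253), and neither passed. Against young sham, aged injury was at -0.02 (limma adjusted p = 0.917). Both values rest on the same aged sham libraries. Its antisense neighbour Uchl1os, which shares 295 exon bases with it, was at 0.082 to 0.409 FPKM. Over the 10 members the median log2 change was 0.01 with age, -0.11 with injury and -0.06 in aged injury against young sham, beside 0.05, -0.01 and 0.02 over all genes tested.

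From library to library, the members moved in separate sets. Across the 9 libraries, Pearson's r between the log2 levels of Nefl, Nefm and Nefh was 0.83 to 0.95, and 0.76 to 0.90 for their deviations from the group means. Among Prph, Tubb3, Stmn3 and Uchl1 the 6 pairs had r of 0.76 to 0.96 for levels and 0.90 to 0.97 within groups. Between the sets the 12 pairs had r of -0.47 to 0.13 for levels and -0.39 to 0.25 within groups. Map1b went with Nefh within groups (r = 0.90), less with Nefm and Nefl (0.72 and 0.65). For levels its r was 0.38 with Nefh, 0.15 with Nefm and -0.01 with Nefl. These are descriptions over 9 points that share depth and base composition, and the sets were seen in these values.

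The sets can be read from single libraries. In percent of the young mean, young sham replicate 2 was at 115.9 for Prph, 115.1 for Tubb3, 111.1 for Stmn3 and 108.8 for Uchl1, the highest of its group for each, while its Nefl was at 94.0, the lowest of its group. Aged sham replicate 1 was at 128.5 for Tubb3 and 121.1 for Stmn3 but at 71.2 for Nefm. Aged sham replicate 3 had the highest Nefl, Nefm, Nefh and Map1b of the aged libraries, at 88.8, 95.2, 110.2 and 125.4. Aged injury replicate 2 was the lowest injured library in all 7 genes of these sets. The slope of the library's levels on the G and C content of the genes also differed. It ran from -0.123 log2 units per SD in young sham replicate 3 to 0.095 in aged sham replicate 3. The slope was higher in young sham replicate 2 (0.012) and lower in aged injury replicate 2 (-0.047) than in the rest of their groups. In aged sham it was highest in replicate 3, whereas Prph, Tubb3, Stmn3 and Uchl1 were highest in replicate 1 (slope 0.059). The part of this slope in the covariation was not tested. With libraries adjusted for G and C content and length, the log2 changes with age of Prph, Stmn3 and Uchl1 turned to -0.19, -0.14 and -0.08, and 4 members (Nefl, Nefm, Nefh and Ina) were called lower in aged injury against young sham. Under that adjustment 3120 genes were called in this comparison, 1993 of them lower, beside 2304 and 860 without it.

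**Figure D4:**
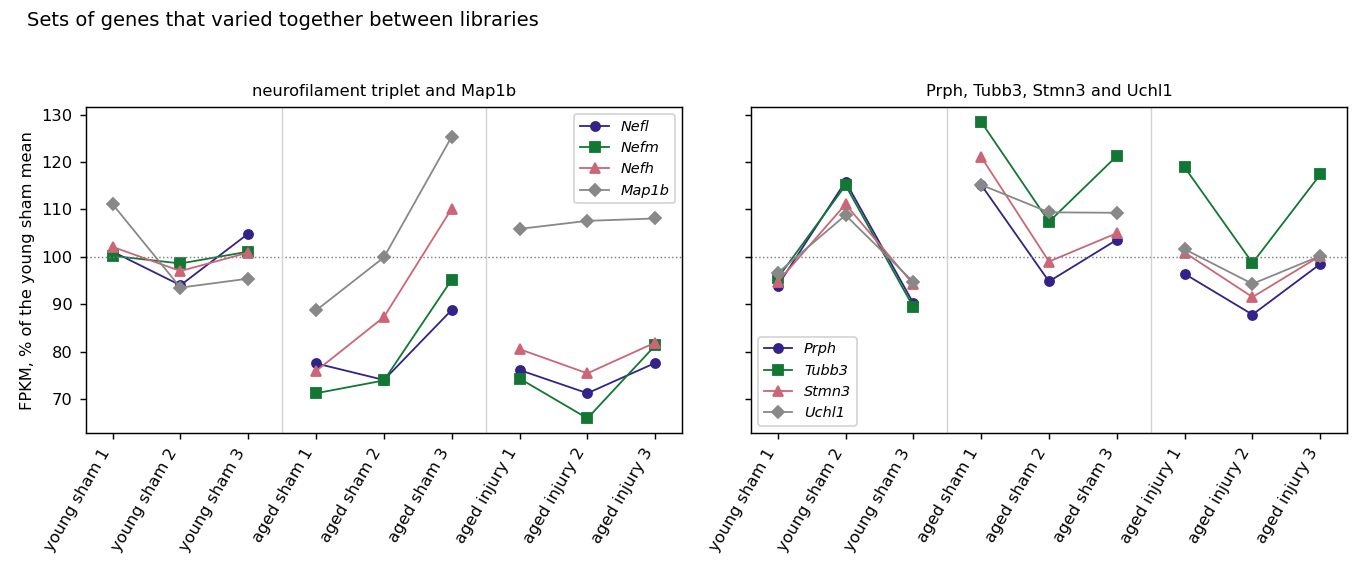
Level of 8 genes in each library as a percent of the young sham mean (dotted line at 100), with Nefl, Nefm, Nefh and Map1b in the left panel and Prph, Tubb3, Stmn3 and Uchl1 in the right one. Lines join libraries of a group only to guide the eye. Aged sham replicate 1 is at 71.2 for Nefm and at 128.5 for Tubb3.

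**Figure D5:**
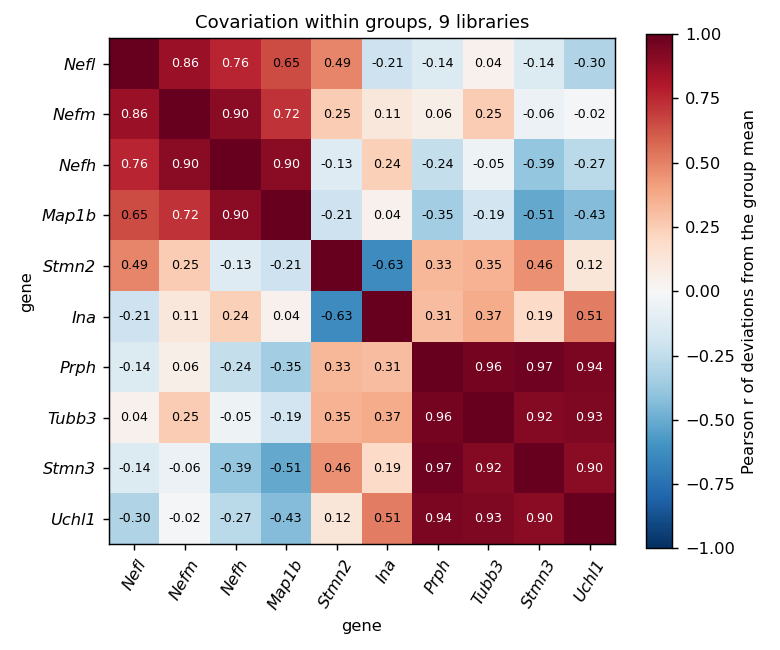
Pearson's r between genes for the deviations of their log2 levels from the group means over 9 libraries, from -1 (blue) to 1 (red). Nefl, Nefm, Nefh and Map1b form a block at the top left, with 0.76 to 0.90 among the neurofilament chains and 0.65 to 0.90 between them and Map1b. Prph, Tubb3, Stmn3 and Uchl1 form a block at the bottom right, with 0.90 to 0.97.

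The genes most like each member over the 9 libraries were searched among 13333 genes with a symbol and a mean of at least 1 FPKM. For the mean standardised level of Nefl, Nefm and Nefh they were Pcsk2os1 (r = 0.968), Nap1l4 (0.946), Nid2 (0.938), and Pcyt1b (0.936). These 4 were picked for following the triplet over these same libraries. Their lower means in aged injury than in young sham come with that choice and are not a separate result. None of the 4 was called in that comparison (limma adjusted p = 0.0712 to 0.0993). For single members they were Pcyt1b for Nefl (0.966), Pcsk2os1 for Nefm (0.959), Cntnap5a for Nefh (0.973), Edf1 for Prph (0.977), Gnao1 for Ina (0.962), Gm13509 for Tubb3 (0.988), Dennd4c for Stmn2 (0.931), Uqcrq for Stmn3 (0.981), Synrg for Map1b (0.975) and Ptger1 for Uchl1 (0.988).

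Among 145 tested genes of 11 lists of other cytoskeleton genes (147 in all), 9 rose, 5 fell and 131 did not pass with age. With injury 7 rose, 3 fell and 135 did not pass, and in aged injury against young sham 18 rose, 7 fell and 120 did not pass. Of all 17601 genes tested, 4.02%, 4.11% and 13.1% were called in these 3 comparisons. The median log2 changes of the 145 genes were 0.07, 0.02 and 0.04. Set to equal medians, the age comparison had 5 rises and 9 falls, and aged injury against young sham 11 rises and 15 falls. With the adjustment for G and C content and length, the latter had 14 rises and 25 falls. With the Y-linked level as covariate, 0 of these genes were called with age (limma) and 4 in aged injury against young sham. With only the 2 groups compared in the fit, 0 were called with age and 1 with injury (limma). Without aged sham replicate 1, 5 genes rose and 1 fell with age, and 7 rose and 3 fell with injury. Without aged sham replicate 3 the count was 0 with age, and it was 0 with injury without aged sham replicate 3, aged injury replicate 1 or aged injury replicate 3 (limma).

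Of the 8 genes that link or turn over filaments, 0 were called with age (limma). In aged injury against young sham 5 of the 8 rose and 1 fell, beside 13.1% of all genes called and 4.89% called lower. Hspb1, a small heat shock protein that binds neurofilaments, rose 2.02-fold (limma adjusted p = 0.00503). Trim2, a ubiquitin ligase that binds the light chain in mice, fell 1.21-fold (limma adjusted p = 0.0151). Among the fits that left out 1 library, Hspb1 was called in 9 of 9 and Trim2 in 6 of 9. Bag3 and Plec, which also rose, were called in 5 of 9 and 3 of 9.

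Among 9 tested genes of other intermediate filaments, 2 rose with age and 0 fell, and 0 were called with injury (limma). Vim, the filament of glia, vessels and connective tissue, was at 232.1, 230.3 and 207.2 FPKM among young pools and 276.1, 300.7 and 315.9 FPKM among aged sham pools, 1.33-fold higher (limma adjusted p = 0.0297), and was called in 3 of 9 fits that left out 1 library. Gfap, the filament of reactive glia, rose 2.73-fold from a low level of 0.4453 ± 0.130 to 1.362 ± 0.0735 FPKM (SD, n = 3 each, limma adjusted p = 0.0151). In the same comparison 3 of 8 macrophage markers were called higher and 0 lower (limma). Of 9 myelinating Schwann cell markers 3 were called lower and 0 higher, beside 4.02% of all genes called. The part of any cell type in the Vim and Gfap values was not tested.

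Of 13 other tubulins, Tuba1c rose with age, Tubb6 rose with injury and the other 12 in each comparison did not pass. Tuba1c, an alpha-tubulin, was at 1.767 to 2.971 FPKM among young pools and 7.391 to 8.212 FPKM among aged sham pools, 3.14-fold higher (limma adjusted p = 0.00881), but its coding sequence is close to those of Tuba1a and Tuba1b and reads could have been split between them. Tubb6, a beta-tubulin outside the neuron-specific class, was at 16.89, 15.51 and 15.12 FPKM among aged sham pools and 28.75, 21.67 and 30.38 FPKM among injured pools, 1.68-fold higher (limma adjusted p = 0.0129; 0.027 without aged sham replicate 1). It was called in 5 of 9 fits that left out 1 library, and not without aged sham replicates 2 or 3 or aged injury replicates 1 or 3. Among 8 other stathmins and severing proteins, Stmn4, a neuronal stathmin also called RB3, was the 1 that rose with injury. It was at 19.83, 11.7 and 10.58 FPKM among aged sham pools and 28.56, 26.27 and 31.54 FPKM among injured pools, 2.12-fold higher (limma adjusted p = 0.0203), with a log2 change of 1.08, or 1.36 without aged sham replicate 1. It was called in 4 of 9 fits that left out 1 library, and not without aged sham replicates 2 or 3 or any 1 aged injury library. The aged sham library with the highest Stmn4 was also the one with the highest axotomy gene level, replicate 1.

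Of 22 microtubule-associated proteins, 2 rose with injury and 1 fell. Map6, which makes microtubules stable to cold, rose 1.28-fold, with 52.73 ± 3.88 FPKM after injury and 41.24 ± 1.2 FPKM after sham (limma adjusted p = 0.0199), and Dclk1, a doublecortin-like kinase, rose 1.31-fold, with 21.95 ± 1.54 and 16.67 ± 0.586 FPKM (limma adjusted p = 0.0171), while its paralogue Dclk2 fell 1.27-fold (limma adjusted p = 0.0303). With age 0 rose and 2 fell, Map9 and Dpysl3, a collapsin response mediator of axon growth (1.31-fold, limma adjusted p = 0.0324, and 1.21-fold, limma adjusted p = 0.036). Of 23 axonal transport motors, Kif3b rose 1.21-fold with injury (limma adjusted p = 0.0246), and with age Klc2 and Dctn3 rose and Dync1li2 fell, by 1.18- to 1.22-fold. Of 13 kinases, phosphatases and activators acting on the cytoskeleton, 1 rose with injury and 2 fell. Cdk5r1, the p35 activator of the neurofilament kinase Cdk5, fell from 12.06 ± 1.08 to 9.219 ± 0.725 FPKM (1.3-fold, limma adjusted p = 0.0416), and Map3k12, the axon injury kinase DLK, 1.23-fold (limma adjusted p = 0.0245), whereas Gsk3b rose 1.2-fold (limma adjusted p = 0.0466). With age Mapk3, the kinase ERK1, was the 1 of the 13 that rose (1.19-fold, limma adjusted p = 0.0459), and 0 fell. Many of these calls depended on single libraries. Among the fits that left out 1 library, Cdk5r1 and Gsk3b with injury were each called in 1 of 9. So were Mapk3, Klc2, Dctn3 and Dync1li2 with age. Dclk2 with injury and Dpysl3 with age were called in 2 of 9, and Map9 with age in 3 of 9. With injury, Map3k12 was called in 4 of 9, Map6 and Kif3b in 5 of 9 and Dclk1 in 6 of 9.

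Of 16 actin and growth cone genes, 2 rose and 2 fell with age and 0 were called with injury (limma). Marcks, which binds actin at the membrane, fell 1.8-fold (limma adjusted p = 0.0382) and Basp1, a growth cone protein, 1.26-fold (limma adjusted p = 0.0364). Tmsb10 and Gsn, which bind actin monomers and cut filaments, rose 1.43- and 1.46-fold (limma adjusted p = 0.0341 and 0.036). Without 1 library, Marcks and Tmsb10 were each called in 1 of 9 fits, and Basp1 and Gsn in 3 of 9. Of 8 ubiquitin and ubiquitin hydrolase genes, 0 were called with injury (limma). In the lists of 15 tubulin folding and modifying genes and 10 membrane skeleton genes, 0 were called in any comparison (limma). The members' own count with injury, 0 of 10, stands beside 10 of these 145 genes and 4.11% of all genes.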

How the data were processed

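Libraries were made from total RNA with a TruSeq mRNA kit, per the labels' protocols, and the authors deposited gene values in FPKM. Build mm10 was used, per the submitters' processing notes, which list FastQC 0.10.1, R 3.1.1, limma 3.22.7, edgeR 3.8.6, HTSeq 0.6.0, SAMtools 0.1.19, Bowtie2 2.2.3 and TopHat2 2.0.12. What each tool did, the annotation release and whether strand was used: not given in the sources used here. Symbols came from GENCODE M21 and matched 16841 of 17601 tested identifiers (95.7%).

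Identifiers averaging 0.2 FPKM or more were tested as log2(FPKM + 0.1) with limma 3.58.1 (R 4.3.3, trended variance, all 9 libraries in 1 fit), with Benjamini-Hochberg adjustment over all of them and calls at an adjusted p under 0.05. Fold changes on this scale understate the change of low genes. P-values measure the spread between pools labelled as separate samples. Ratios were tested by exact permutation, and tables were made with Python 3.11.15. FPKM values were whole multiples of 1 read, within 0.001, for 17461 of 17601 genes (99.2%). The fit was also run on simulated data with 100 genes changed 2-fold and 100 changed 4-fold among 17601. It recovered 85% and 89% with age, 86% and 95% with injury, and 86% and 98% for aged injury against young sham. Of the calls, 2.8%, 7.2% and 5.2% were false, against the 5% aimed at. Smaller changes were not simulated, and the members changed by at most 1.36-fold, so these shares do not apply to them.

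Alternatives changed the pseudocount, filter, scaling, variance model, covariates and libraries used. Named were all 10 members, from each list up to 3 tested genes with the smallest p with age and 3 with injury, and the genes most like the members. Members and lists were chosen with earlier results of these data known. Results on some genes that this rule names are not reported here.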

Additional observations from a re-analysis of the deposited data

How the results depend on the processing

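The members' log2 changes kept their direction and side of the threshold in 598 of 660 recomputed values; 17 were no longer called, 11 became called and 34 reversed. The causes were not tested. Voom on recovered reads and the adjustment for G and C content and length were chosen after seeing the data.

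With age, the 707 genes called became 239 with no filter, 31 with only the 2 groups, 2020 with array weights, 8 with the Y-linked level as covariate, 1089 with voom and 236 with the G and C adjustment, and 23 to 1536 without 1 library. The 0 members called became 1 with a filter at 1 FPKM, quantile normalization, array weights or voom. With injury, the 723 genes became 302 with only the 2 groups and 151 to 740 without 1 library, and 0 members were called in any setting run (limma or voom). In aged injury against young sham, the 2304 genes became 3755 with array weights, 145 with the Y-linked covariate, 3120 (1993 of them lower) with the G and C adjustment and 869 to 2365 without 1 library. The 2 members called became 0 with no filter, quantile normalization or the Y-linked covariate, 4 with the G and C adjustment, and 0 to 3 without 1 library.

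The scaling moved the balance of calls. Higher and lower calls with age were 445 and 262, against 281 and 536 with equal medians, 388 and 509 with quantile normalization and 667 and 85 with an equal pan-neuronal level. With injury they were 432 and 291, against 287 and 294, 425 and 294, and 402 and 155 in the same order. In aged injury against young sham they were 1444 and 860, against 1029 and 1670, 1168 and 1241, and 1849 and 334.

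The members whose log2 change reversed were not called. With age, the G and C adjustment gave -0.1919 for Prph, -0.144 for Stmn3, -0.0809 for Uchl1 and 0.1025 for Stmn2. Quantile normalization gave 0.187 for Stmn2 and -0.0301 for Map1b, the Y-linked covariate 0.08 and -0.1989 for the same genes, and an equal pan-neuronal level 0.0141 for Stmn2. With injury, quantile normalization gave 0.0071 for Tubb3, and Map1b was at -0.0002 with array weights, -0.061 with the Y-linked covariate and -0.0371 with the G and C adjustment. In aged injury against young sham, the Y-linked covariate gave 0.1512 for Prph, 0.2344 for Stmn3, -0.2599 for Map1b and 0.0612 for Uchl1. Stmn3 and Uchl1 were at 0.0178 and 0.2198 with quantile normalization, 0.0365 and 0.0529 with an equal pan-neuronal level, and 0.0155 and 0.0178 with array weights.

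Without 1 library, the log2 change with age was -0.0037 to 0.1795 for Prph, -0.0747 to 0.016 for Stmn2 and -0.0826 to 0.1667 for Map1b. With injury it was -0.1897 to 0.0194 for Nefm and -0.062 to 0.1873 for Map1b. In aged injury against young sham it was -0.1487 to 0.0326 for Prph, -0.0745 to 0.0448 for Stmn3 and -0.0549 to 0.0453 for Uchl1. The log2 ratio of Nefm to Nefl changed by -0.063 to 0.0477 with age and -0.0757 to 0.035 with injury, and that of Prph to Nefl by -0.1355 to 0.0393 with injury.

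With the replicate number as a block, 101, 273 and 1561 genes and 0, 0 and 2 members were called. Deviations of same-numbered libraries correlated at 0.245, 0.27 and 0.062 between the aged groups, above the -0.26 to 0.041 of differently numbered ones. Between young sham and the aged groups, same-numbered libraries were at -0.067 to -0.02 and differently numbered ones at -0.04 to 0.079. The labels give only a replicate number, so whether the numbers pair the aged samples is not known. The main fit did not pair them.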
